A study of Arabidopsis thaliana with 6 samples.

Results

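MYB73, AT4G37290, AT4G37295 and CYP81H1 lie beside MRG1 on chromosome 4 of Arabidopsis thaliana, and all 4 had more RNA in plants mutated in both MRG1 and MRG2. They were selected on the authors' fold change and adjusted p, as the genes listed as higher in the mutant among the 5 protein-coding genes on each side of MRG1, and are 4 of 552 listed genes and 4 of the 531 listed as higher. Because the difference between the genotypes chose them, it is described here and not tested. The 6 libraries came from aerial parts of 12-day-old seedlings in the Col-0 ecotype, 3 from wild-type plants and 3 from mrg1 mrg2 plants, over 3 independent experiments. Both genotypes grew on a soil mix at 22 °C in 16 h days and were harvested under these control conditions at zeitgeber time 8 h. The kind of mutation at each MRG gene is not given in the sources used here.

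MRG1 and MRG2 encode chromodomain proteins that recognise methylated histone H3 on transcribed genes and work with histone acetyltransferases. MYB73 is an R2R3-MYB transcription factor, closely related to MYB44, MYB70 and MYB77, a group known for roles in abscisic acid, auxin and salt responses. CYP81H1 is a cytochrome P450, a haem enzyme that oxidises small molecules, and belongs to a family whose CYP81F members modify indole glucosinolates. The annotation and the deposited descriptions give AT4G37290 and AT4G37295 no function; AT4G37290 is placed there in the endomembrane system and among genes responding to karrikin, a smoke-derived germination signal.

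The values are raw read counts, divided by a size factor per library where they are called normalized. Counts exist here only for listed genes, so MRG1 itself, which is not listed, has no value. MRG2, the other mutated gene, had 380 to 437 reads in the Col-0 libraries and 96 to 188 in the mutant libraries, which matches the labels for MRG2. Of 11 leaf, root and flower marker genes, 0 were listed, so the tissue label was not checked.

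The 4 genes surround MRG1 at close range. MRG1 (AT4G37280) occupies chr4:17546577-17549559 on the minus strand of TAIR10.1, in 11 exons. AT4G37290 (chr4:17549607-17550257, minus strand, 1 exon) is its nearest neighbour on the upstream side, and its annotated end is 47 bases from the annotated start of MRG1. AT4G37295 (chr4:17553310-17554105, plus strand, 1 exon) is the next gene and is divergent from AT4G37290, with 3052 bases between their starts. CYP81H1 (chr4:17555899-17559104, minus strand, 3 exons) follows after MEE59, whose plus-strand 3′ end overlaps that of CYP81H1 by 150 bases. On the other side, MYB73 (chr4:17540490-17541799, plus strand, 1 exon) converges on HMA1, a chloroplast envelope metal ATPase gene, and overlaps its end by 29 bases. HMA1 lies between MYB73 and MRG1, and its annotated start is 30 bases from the annotated end of MRG1.

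**Figure D1:**
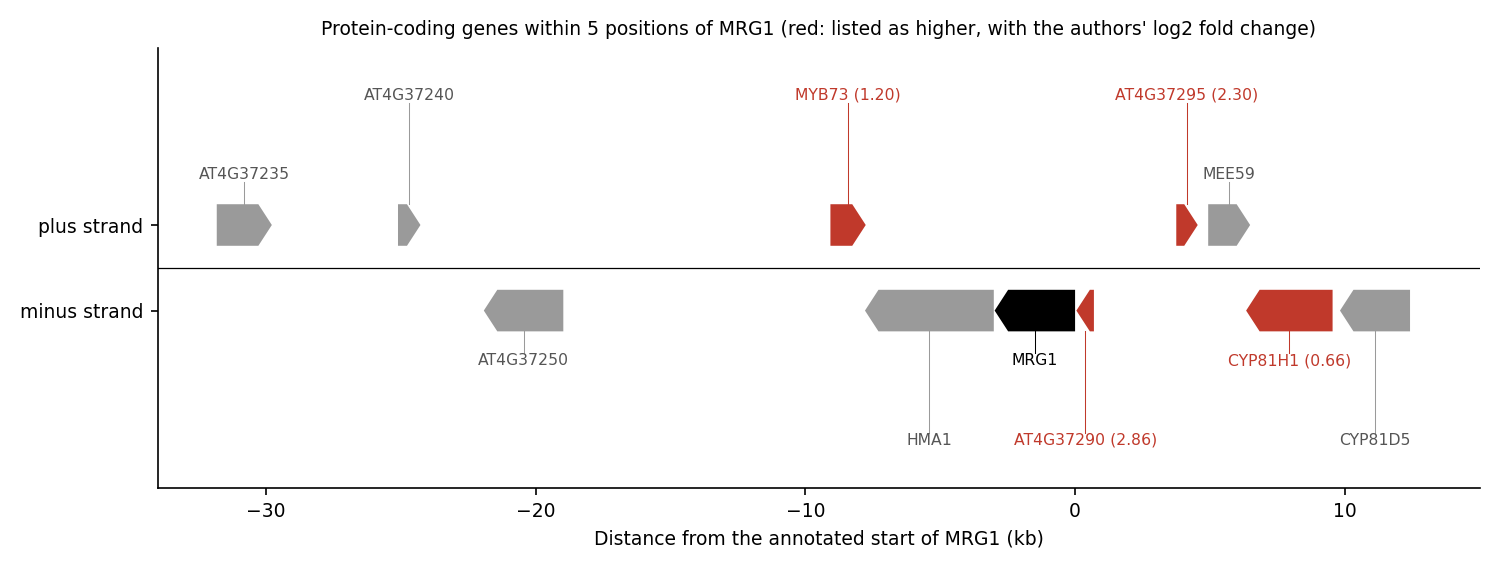
Map of the protein-coding genes within 5 positions of MRG1, drawn to scale, with distance from the annotated start of MRG1 in kb on the horizontal axis and the strand on the vertical axis. Red arrows are the 4 genes listed as higher, with the authors' log2 fold change in parentheses (2.86 for AT4G37290), grey arrows are genes that were not listed, and MRG1 is black.

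The stretch of 47 bases between AT4G37290 and MRG1 (chr4:17549560-17549606, minus strand, RefSeq TAIR10.1) is shown because it is all that separates the pair, which lie on the same strand, and it runs from the end of AT4G37290 to the start of MRG1.
Gap between AT4G37290 and MRG1: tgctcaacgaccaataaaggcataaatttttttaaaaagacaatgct

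Of the 10 protein-coding genes in the window, 4 were listed as higher and 0 as lower, and 6 were not listed: AT4G37235, AT4G37240, AT4G37250, HMA1, MEE59 and CYP81D5. Over all genes, 531 of the 22995 that the authors are inferred to have tested were listed as higher (2.31%), and 506 of the 27444 annotated nuclear protein-coding genes (1.84%). The selection rule sets the count of 4, so it is not read as a result. The smallest log2 fold change listed was 0.59 among higher genes and -1.06 among lower ones, so the 2 lists may not have been cut alike. An inferred 195 genes in the p-value range of the listed genes were not listed either, so unlisted does not mean unchanged. Unlisted neighbours have no counts here, and whether they changed is not known.

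No further gene was listed within 25 genes of MRG1 on either side. The nearest listed genes were AT4G37030, 27 genes and 94.9 kb away on the MYB73 side, and LBD39, 30 genes and 92.1 kb away on the CYP81H1 side, where the authors' deposited table gave log2 fold changes of 1.10 and 0.92. GT6 and CAD7 were the only others within 100 genes, making 4 listed genes among the 190 outside the window (2.11%), close to the share over all genes. These 4 were named after their values were seen. Around MRG2 on chromosome 1, 0 of the 10 genes in the window of the same size were listed, and 4 of the next 190 were.

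**Figure D2:**
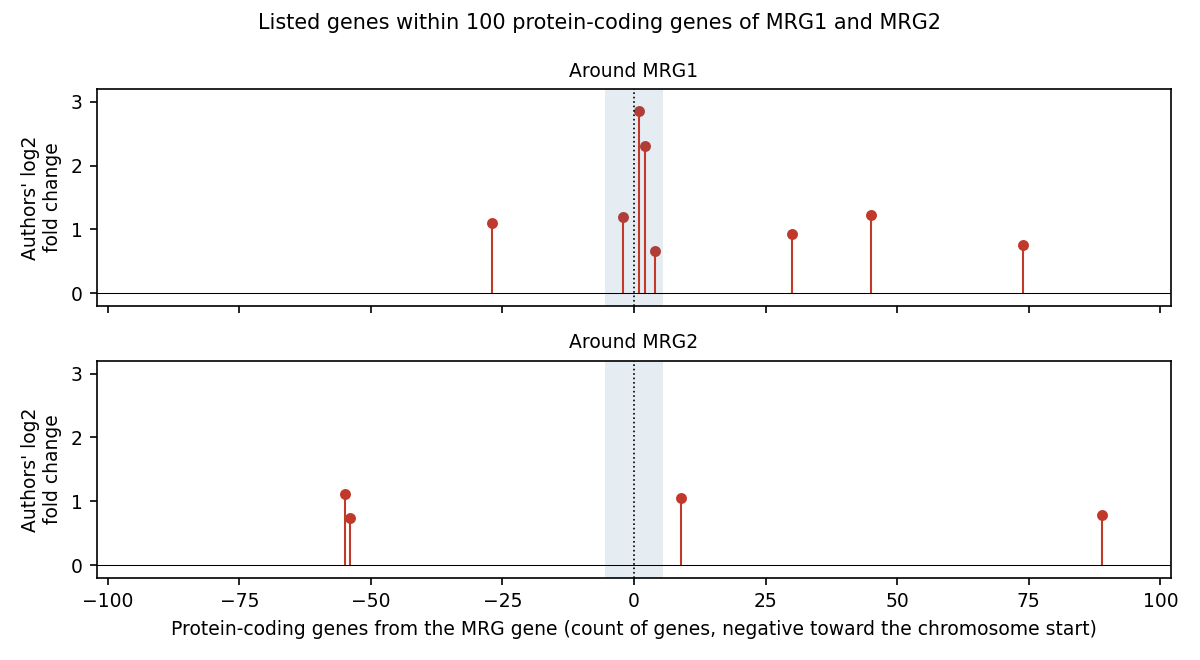
Authors' log2 fold change of each listed gene (vertical axis) against its position in protein-coding genes from MRG1 (top) or MRG2 (bottom); the shaded band covers 5 genes on each side. The band holds 4 listed genes around MRG1 and 0 around MRG2, and each panel has 4 listed genes outside it.

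AT4G37290 gave the largest relative difference of the 4. It had 12, 14 and 6 reads in Col-0 replicates 1, 2 and 3 and 86, 75 and 71 reads in the mutant libraries of the same numbers. Every mutant library was far above every Col-0 library, the lowest being 4.83 times the highest in normalized counts. The means were 10.7 ± 4.37 normalized counts in Col-0 and 77.6 ± 11.0 in the mutant (SD, n = 3 each), a 7.24-fold higher level. The log2 fold change in the authors' deposited table was 2.86, with an adjusted p of 7.40e-10, rank 31 of the 552 listed genes by p-value and rank 35 of the 531 higher genes by fold change. With 32 reads in all of Col-0, counting error is wide: the pooled ratio had an exact binomial 95% interval of 4.99 to 10.8, which covers counting error only.

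AT4G37295, the gene on the far side of the intergenic stretch, had the next largest ratio. Its reads numbered 4, 8 and 12 in Col-0 replicates 1, 2 and 3 and 51, 37 and 30 in the mutant. The genotypes did not overlap, and the lowest mutant library was 2.60 times the highest Col-0 library in normalized counts. The means were 8.00 ± 3.95 and 39.6 ± 12.2 normalized counts (SD, n = 3 each), a 4.94-fold higher level in the mutant. For AT4G37295 the authors' deposited table gave a log2 fold change of 2.30 and an adjusted p of 0.00133. The Col-0 libraries held 24 reads in all, and the exact binomial 95% interval of the pooled ratio was 3.15 to 7.97 (counting error only).

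The coding sequences of AT4G37290 and AT4G37295 are shown because the annotation used here describes no product for either. The start and stop codons are in capitals (RefSeq TAIR10.1). That of AT4G37290 lies at chr4:17549929-17550183, minus strand, and that of AT4G37295 at chr4:17553628-17553888, plus strand.
AT4G37290 coding sequence: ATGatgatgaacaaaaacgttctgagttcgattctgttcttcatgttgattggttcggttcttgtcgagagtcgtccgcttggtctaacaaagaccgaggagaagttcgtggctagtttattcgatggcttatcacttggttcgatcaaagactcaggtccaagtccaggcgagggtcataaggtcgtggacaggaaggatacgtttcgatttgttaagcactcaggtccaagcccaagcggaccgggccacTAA
AT4G37295 coding sequence: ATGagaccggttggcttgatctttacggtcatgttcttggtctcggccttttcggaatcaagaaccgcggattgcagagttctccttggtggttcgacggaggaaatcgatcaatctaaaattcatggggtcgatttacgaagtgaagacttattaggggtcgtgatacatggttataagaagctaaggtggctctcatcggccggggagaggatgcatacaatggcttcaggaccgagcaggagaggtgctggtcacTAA

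Both are short, with 255 and 261 coding bases, or 85 and 87 codons with the stop codon. Coding sequences of at most 261 bases made up 5.14% of the 506 higher protein-coding genes and 5.67% of all nuclear protein-coding genes. The best match of AT4G37290 among 1687 other coding sequences of 200 to 320 bases was AT2G23270, with 75.1% identity over a global alignment, where the median was 50.7%. AT2G23270 is the gene next to MYB70 on chromosome 2, as AT4G37290 lies near MYB73 on chromosome 4. AT4G37295 had no close match in that set by this measure: the highest identity was 56.6%, and AT4G37290 came 188th with 52.4%. Identity over whole coding sequences can miss a short shared stretch, and the encoded proteins were not compared, so the values do not show that the 2 genes are unrelated. AT2G23270 was not listed. Every stretch of 50 bases in the exons of the 4 genes, the length of the reads, occurred once in the nuclear and organelle genome, so no exact copy elsewhere shares their reads.

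MYB73 was the most abundant of the 4 and, among the mutant libraries, the most variable. Its reads numbered 4015, 2414 and 2151 in Col-0 replicates 1, 2 and 3 and 4979, 5426 and 9150 in the mutant. The genotypes did not overlap, but the lowest mutant library was only 1.28 times the highest Col-0 library, and Col-0 replicate 1 and mutant replicate 3 stood above the others of their genotype. The means were 2853 ± 967 and 6551 ± 2454 normalized counts (SD, n = 3 each), a 2.30-fold higher level in the mutant. For MYB73 the authors' deposited table gave a log2 fold change of 1.20, near the median of 1.08 over all higher genes there, and an adjusted p of 0.00675. The coefficient of variation in the mutant was 37.5%, exceeded by 23 of the 531 higher genes, where the median was 14.0%. In Col-0 it was 33.9%, exceeded by 128 genes, with a median of 18.7%. Counting error is a small part of this spread, since each library held at least 2151 reads of MYB73. Of the 531 higher genes, 254 (47.8%) had their highest Col-0 level in replicate 1, as MYB73 did; the other members did not.

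CYP81H1 had the smallest ratio and the least spread. Its reads numbered 1434, 1331 and 1734 in Col-0 and 1992, 2599 and 2526 in the mutant. The genotypes did not overlap, with the lowest mutant library 1.22 times the highest Col-0 library in normalized counts. The means were 1497 ± 183 and 2366 ± 256 normalized counts (SD, n = 3 each), a 1.58-fold higher level in the mutant, which turns to a lower one only if libraries are scaled so that the listed genes themselves do not differ. The authors' deposited table gave a log2 fold change of 0.66 and an adjusted p of 0.000725, so that CYP81H1 was rank 483 of the 531 higher genes by fold change and rank 188 of 552 by p-value. The smallest log2 fold change listed there among higher genes was 0.59. Its coefficient of variation was 12.2% in Col-0 and 10.8% in the mutant.

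**Figure D3:**
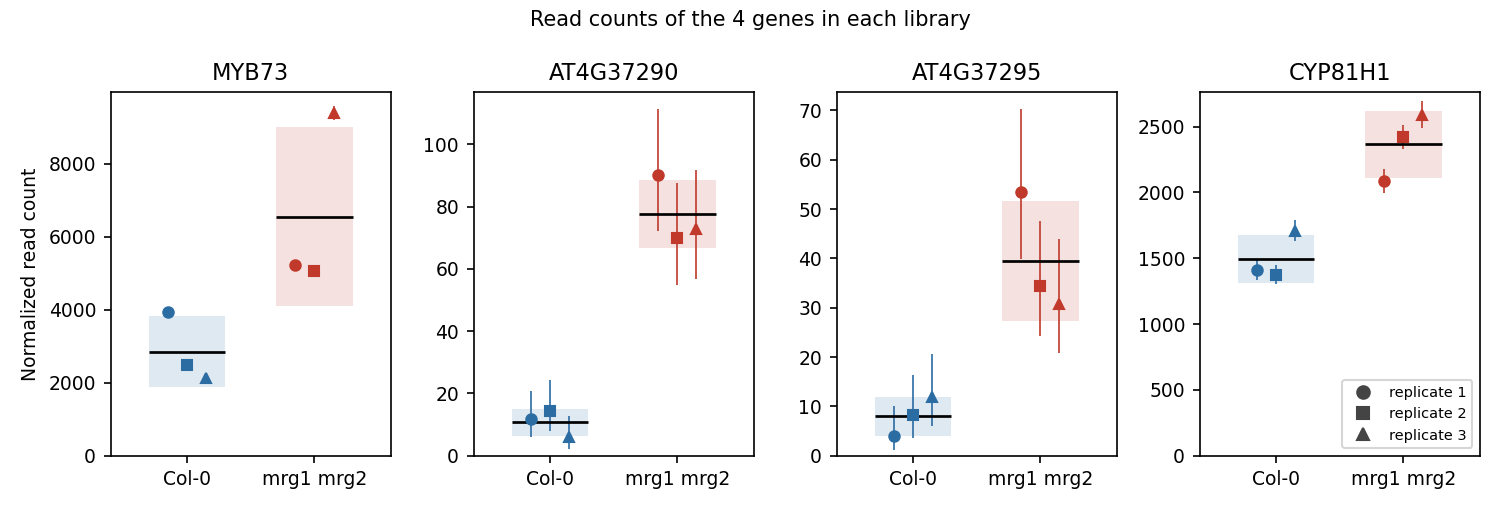
Normalized read count of each gene (vertical axis, separate scales from 0) in the 3 Col-0 and 3 mrg1 mrg2 libraries, with exact Poisson 95% intervals for counting error; symbols mark the replicate number, black lines the means and shaded boxes the mean ± SD. In all 4 panels the mutant libraries lie above the Col-0 libraries, with the widest gap for AT4G37290 and the widest spread among mutant libraries for MYB73.

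All 4 genes had non-overlapping genotypes, as did 530 of the 531 higher genes (99.8%), since listed genes were selected for a difference. Libraries of the same replicate number were also compared for the size of the ratio. Its direction was fixed, since without overlap the mutant is higher in each of the 3 pairs for each gene. The size of the ratio followed a different order in each gene, but only for MYB73 were all 3 counting intervals apart. MYB73 was 1.32, 2.03 and 4.43 times higher in pairs 1, 2 and 3, and the counting intervals of these ratios were apart from each other (1.27 to 1.38, 1.93 to 2.13 and 4.23 to 4.65). AT4G37295 was 13.6, 4.17 and 2.60 times higher, with wide counting intervals (4.99 to 51.8, 1.91 to 10.4 and 1.29 to 5.58). AT4G37290 was 7.64, 4.83 and 12.3 times higher, with counting intervals that all overlap (4.15 to 15.4, 2.71 to 9.26 and 5.39 to 34.7). CYP81H1 was 1.48, 1.76 and 1.52 times higher, and the intervals of pairs 1 and 3 overlap (1.38 to 1.59 and 1.43 to 1.61). The pair with the largest MYB73 ratio therefore had the smallest AT4G37295 ratio, although the intervals of the latter overlap.

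**Figure D4:**
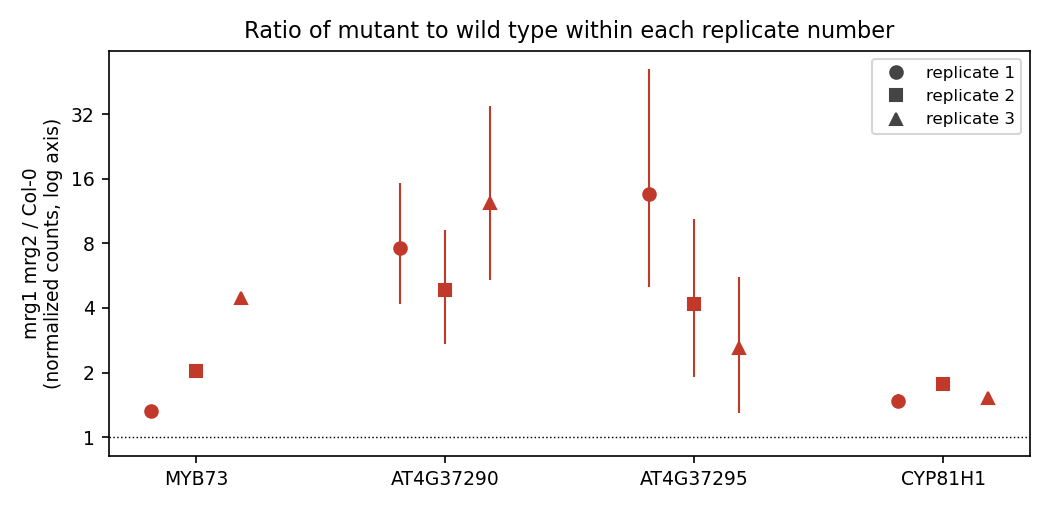
Ratio of the mrg1 mrg2 to the Col-0 normalized count (vertical axis, log scale) for the libraries of each replicate number, with exact binomial 95% intervals for counting error; the dotted line marks a ratio of 1. All 12 ratios are above 1, from 1.32 to 13.6, and the order of the replicate numbers differs between the genes.

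Compared per kb of exon, the abundance of the 4 genes spanned a wide range. In Col-0, MYB73 had 2178 ± 738 normalized counts per kb, CYP81H1 719 ± 87.8, AT4G37290 16.5 ± 6.72 and AT4G37295 10.1 ± 4.96 (SD, n = 3). The last 2 did not differ beyond their spread in Col-0. In the mutant the levels were 5000.4 ± 1873, 1137 ± 123, 119 ± 16.8 and 49.7 ± 15.3 normalized counts per kb in the same order, and here AT4G37290 was above AT4G37295 in every library. AT4G37290 took 75.0, 63.6 and 33.3% of the reads of these 2 genes in Col-0 replicates 1, 2 and 3, and 62.8, 67.0 and 70.3% in the mutant. The exact binomial 95% intervals of these shares overlapped between every Col-0 and every mutant library except Col-0 replicate 3 (13.3 to 59.0%) and mutant replicate 3 (60.4 to 79.0%).

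Listed genes of different abundance have different fold changes, so each gene was also placed among the higher genes within 2-fold of its own Col-0 level. AT4G37290 was rank 5 of 59 by log2 fold change in the authors' deposited table, where the median of the 59 was 1.90, and MYB73 was rank 4 of 26, with a median of 0.83. AT4G37295 was rank 18 of 54, with a median of 2.07, and CYP81H1 was rank 35 of 46, with a median of 0.82. AT4G37290 was thus among the larger changes at its level and CYP81H1 among the smaller. The place of MYB73 depended on single libraries in both directions. Without mutant replicate 3 its log2 ratio was 0.85, near the median of 0.83 for genes of its level. Without Col-0 replicate 1 it was 1.51, above the highest value of those genes, 1.42. The median and highest value were taken with all 6 libraries.

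**Figure D5:**
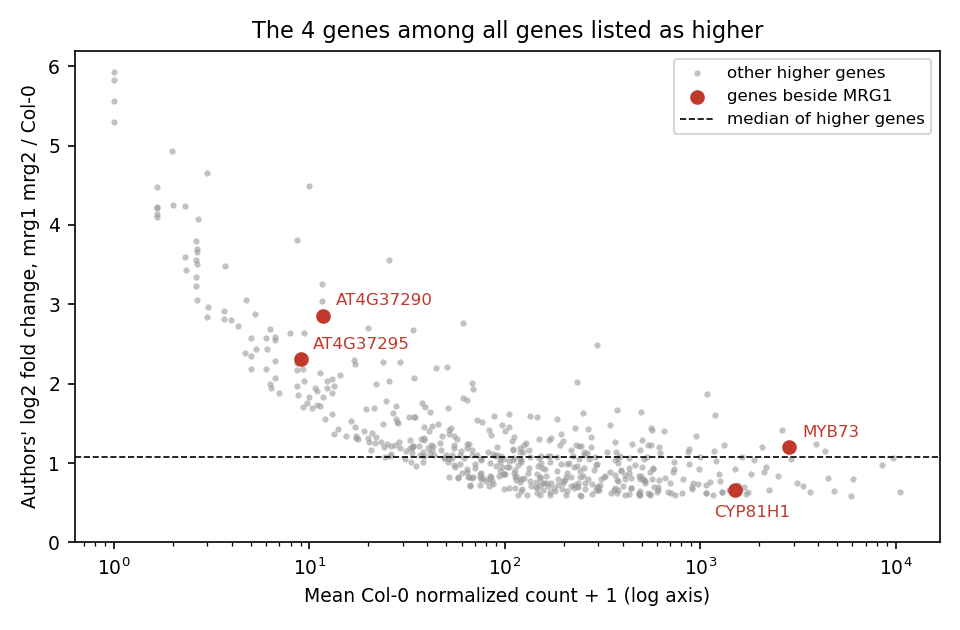
Authors' log2 fold change (vertical axis) against the mean Col-0 normalized count plus 1 (horizontal axis, log scale) for the 531 genes listed as higher, with the 4 genes beside MRG1 in red and the median of 1.08 as a dashed line. AT4G37290 and AT4G37295 sit among the rare transcripts with large changes, MYB73 and CYP81H1 among the abundant ones.

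Relatives of the 4 genes elsewhere in the genome were looked up in the tables. With 1.84% of protein-coding genes listed as higher, few members of a short list would be listed whatever the list, so these counts are a description. MYB73 was the only listed gene of its 4-member subgroup; MYB44, MYB70 and MYB77 were not listed, and neither was any gene within 5 protein-coding genes of them. Of 6 genes tied to the subgroup in Arabidopsis, namely the sodium exporter gene SOS1, its calcium sensor gene SOS3, the phosphatase genes ABI1, ABI2 and HAB1 and the abscisic acid receptor gene PYL8, 0 were listed. CYP81H1 was the only one of 17 CYP81 genes listed, although CYP81D5, CYP81D4, CYP81D3, CYP81D2 and CYP81D8 follow it on the same strand. In the wider family, 16 cytochrome P450 genes were listed as higher and 0 as lower, beside 531 and 21 over all genes. The size of that family is not given here, so these counts give no share to set beside the 1.84%. Higher genes were listed from a log2 fold change of 0.59 and lower ones only from -1.06. Among the 16 cytochrome P450 genes, CYP81H1 had the most reads in Col-0 and ranked 14 by fold change.

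The library profile of each of the 4 genes was compared with those of the other listed genes, the remaining members included. Likeness was measured as the root mean square difference of log2 normalized counts over the 6 libraries, each gene centred on its mean, among 498 listed genes with a mean of at least 20. Between the 4 genes this difference ran from 0.49 (MYB73 and CYP81H1) to 1.18 (AT4G37290 and CYP81H1), and it was 0.75 for AT4G37290 and AT4G37295. The nearest profiles to MYB73 were DTX50, a transporter of the multidrug extrusion family, at 0.11, the metalloproteinase gene 3MMP at 0.16 and the disease resistance-like gene AT5G41750 at 0.17, against a median of 0.47. CYP81H1 was nearest to CYP71B11, also a cytochrome P450, at 0.05, to RABH1E, a Rab GTPase gene, at 0.07 and to AT1G50790 at 0.08, against a median of 0.33. AT4G37290 was nearest to the malate synthase gene MLS at 0.26, to AT3G12460 at 0.28 and to the MADS-box gene PHE1 at 0.34, against a median of 1.00. AT4G37295 was nearest to the MADS-box gene AGL102 at 0.37 and to SFH1 and AT3G58380, both at 0.44, against a median of 0.87. The mean covered both genotypes, so AT4G37290 and AT4G37295, at 10.7 and 8.00 normalized counts in Col-0, reached 20 only through the mutant libraries. Each distance also includes the difference between genotypes that chose the genes, so nearness in part restates a similar fold change. These distances rest on 6 libraries that also chose the genes and are a description.

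The 250 bases before each annotated start were read from RefSeq TAIR10.1 because the 4 genes were higher together, and they are printed with matches to TTGAC, the core of the W-box bound by WRKY factors, in capitals on either strand. The intervals are chr4:17540240-17540489 (plus strand), chr4:17550258-17550507 (minus strand), chr4:17553060-17553309 (plus strand) and chr4:17559105-17559354 (minus strand).
MYB73 promoter: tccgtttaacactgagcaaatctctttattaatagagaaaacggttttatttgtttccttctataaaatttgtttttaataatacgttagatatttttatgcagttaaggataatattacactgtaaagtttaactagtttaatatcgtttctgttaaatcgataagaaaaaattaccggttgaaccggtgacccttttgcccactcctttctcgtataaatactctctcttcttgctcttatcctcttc
AT4G37290 promoter: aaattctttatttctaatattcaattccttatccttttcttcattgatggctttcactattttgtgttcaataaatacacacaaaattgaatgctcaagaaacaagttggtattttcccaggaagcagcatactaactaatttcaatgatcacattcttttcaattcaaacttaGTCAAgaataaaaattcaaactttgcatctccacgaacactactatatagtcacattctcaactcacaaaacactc
AT4G37295 promoter: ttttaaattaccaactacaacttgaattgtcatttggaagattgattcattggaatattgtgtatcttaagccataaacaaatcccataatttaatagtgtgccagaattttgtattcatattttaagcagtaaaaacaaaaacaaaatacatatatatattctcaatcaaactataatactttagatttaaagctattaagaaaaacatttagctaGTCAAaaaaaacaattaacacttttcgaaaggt
CYP81H1 promoter: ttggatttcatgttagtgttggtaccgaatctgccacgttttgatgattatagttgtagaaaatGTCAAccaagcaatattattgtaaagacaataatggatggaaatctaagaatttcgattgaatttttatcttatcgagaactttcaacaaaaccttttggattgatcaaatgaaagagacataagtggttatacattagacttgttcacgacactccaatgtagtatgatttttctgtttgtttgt

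Searched on both strands, TTGAC occurred 1 time each in the promoters of AT4G37290, AT4G37295 and CYP81H1 and 0 times in that of MYB73, and 44.9% of 27443 promoters of the same length held it. AACNG, the core bound by MYB factors, with N any base, occurred 7 times before MYB73 and 1 time before CYP81H1, and was in 70.2% of all promoters. The G-box CACGTG, the drought and cold core CCGAC, the ERF element GCCGCC and the rapid stress element CGCGTT were in 0 of the 4 promoters, and in 6.49%, 12.0%, 1.87% and 2.59% of all promoters. No motif searched was common to all 4.

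All 3 mutant libraries carry the mrg1 allele at this locus as well as the mrg2 allele, so an effect of the allele on its neighbours and an effect of the loss of the MRG proteins cannot be told apart. The count of reads per gene also does not separate more cells expressing a gene from more RNA per cell. Library preparation kept strand, per the labels, but the strand setting of the counting is not given in the sources used here; for the 29 bases shared by MYB73 and HMA1 and the 150 bases shared by CYP81H1 and MEE59, reads of the partner gene may therefore be included.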

How the data were processed

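Per the labels' protocols, RNA depleted of ribosomal RNA was made into stranded libraries and sequenced as single-end reads of 50 bases; per the submitters' processing notes, TAIR10 was the build and DESeq2 a tool. The aligner and counter are not named in the sources used here. The deposited tables hold only genes the authors listed: raw counts of reads per gene and library, not normalized, per the file headers, with the p-value and adjusted p-value (FDR) and the log2 fold change of mrg1 mrg2 over Col-0 from the authors' test. Library totals are unknown; counts over listed genes summed to 194996 to 253738 in Col-0 and 372415 to 432369 in mrg1 mrg2, which are not depths.

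Size factors (0.954 to 1.07) were fitted to return the log2 fold changes deposited by the authors, using the 350 genes whose count reached 50 in every library (Python 3.11.15, scipy 1.17.1); on simulated counts for these genes the largest relative error was 0.000363. The number of genes tested was inferred from the p-values and adjusted p-values. Members and lists were chosen with earlier results of these data known. Named genes are the 4 members, their neighbours, genes of the MYB subgroup, its partners and the CYP81 family, and the 3 nearest profiles of each; list entries that neither the tables nor the annotation name are given by identifier, with no role. No test was made, since the contrast chose the genes. Positions, exons and sequences are from the RefSeq TAIR10.1 annotation, whose strand matched for 549 of 549 listed genes found in it.

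Same-numbered libraries deviated from their genotype means together across 435 genes (r = 0.40, 0.55 and 0.32, against -0.42 to 0.02 for other pairs), so the numbers were taken to pair the libraries; genes are not independent replicates. Deviations from a genotype mean cancel out within each gene, so the values of the other pairs are not an independent reference for the same-numbered ones. Replicates of a genotype differed by 12.0 to 34.0 in chi-square per gene, where counting noise alone gives about 1.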

Additional observations from a re-analysis of the deposited data

How the results depend on the processing

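For each of the 4 genes, the log2 ratio of mrg1 mrg2 over Col-0 was computed under 12 alternatives (the leave-outs included), and in 11 of them it moved by less than the SD between replicates. The exception was median-of-ratios scaling over the listed genes, which lowers every log2 ratio by about 1.02 by construction, since 531 of the 552 listed genes are higher in the mutant: the ratio became 0.20 for MYB73, 1.85 for AT4G37290 and 1.26 for AT4G37295, and it reversed to -0.36 for CYP81H1. The same factors centred within each genotype, an alternative chosen after seeing the data, gave ratios within the SD. With each library left out in turn, the log2 ratio ran from 0.85 to 1.51 for MYB73, 2.56 to 3.13 for AT4G37290, 1.98 to 2.70 for AT4G37295 and 0.59 to 0.76 for CYP81H1. With replicate number as a block, the mean paired log2 ratio was 1.19 ± 0.88 for MYB73, 2.94 ± 0.68 for AT4G37290, 2.40 ± 1.23 for AT4G37295 and 0.66 ± 0.14 for CYP81H1 (SD, n = 3 pairs). The block could change no direction, because the genotypes did not overlap. The genotypes also stayed apart for 4 of 4 genes with raw counts. Leaving out a library cannot make separate genotypes overlap, so the same count without any 1 library was fixed in advance. The window held 3 higher genes with 3 neighbours on each side or with log2 fold changes of at least 1, and 4 with 10 neighbours. Depth limits AT4G37290 and AT4G37295 most, with 32 and 24 reads over the Col-0 libraries.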

Other observations

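HSL2, a leucine-rich repeat receptor kinase of short peptide signals, was the only listed one of RLK7, BAK1, HAE and HSL2, with 241 ± 22.0 normalized counts in Col-0 and 429 ± 53.6 in the mutant (SD, n = 3 each), a log2 fold change of 0.83 and an adjusted p of 0.000101 in the authors' deposited table. A list of 12 genes was made by hand to hold precursors of short peptides such as IDA. It held the peptide genes IDA, IDL1, IDL2, IDL3, IDL4 and IDL5, which were not listed, and 6 genes that the annotation does not name. The family of the 6 unnamed genes was not checked, so the named ones do not stand for all IDA-like genes. Of the 6 unnamed genes, AT4G37290 and AT3G10930 were listed as higher, the first being a member that the selection rule had already chosen. Over all annotated nuclear protein-coding genes, 1.84% were listed as higher. Counts in lists this short, that of HSL2 included, are a description. AT3G10930, on chromosome 3, had 122 ± 48.4 normalized counts in Col-0 and 270.2 ± 70.7 in the mutant (SD, n = 3 each), and the authors' deposited table gave a log2 fold change of 1.14 and an adjusted p of 0.0254.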
